A study of Homo sapiens with 6 samples.

Results

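CXCR4 and CXCR7 (now named ACKR3) are cell surface receptors that share the chemokine CXCL12. They were taken from a table of 14686 genomic regions by their names, and each name marks 1 region, so that 2 of the 14686 regions are described here. The study read polyadenylated RNA at its 3′ ends in human H9 embryonic stem cells (hESCs), an established line, and in endoderm made from them, at 3 points of the cell cycle. The 3 endoderm libraries came from day 6 cells in G1 (labelled 0 h), G1/S (3 h) and S (6 h), and the 3 hESC libraries from undifferentiated cells in G1 (0 h), G1/S (2 h) and S (3 h). All cells derive from passage 51. For endoderm, activin A was given at 100 ng/ml in RPMI for 6 days, with fetal bovine serum left out for a day, then at 0.2% for a day and at 2% until the end, and with 1 change of medium, on day 3. The hESCs grew on growth-factor-reduced Matrigel in medium conditioned by mouse embryonic fibroblasts, so activin, serum and medium cannot be told apart from cell type. What the hours count from, and how the phases were obtained, is not given in the sources used here. Each cell type and phase has 1 library, so the p-values below measure only the spread among these 6 libraries.

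CXCR4 is a G protein-coupled receptor for CXCL12 (SDF-1). It signals through inhibitory G proteins, guides migrating cells, and is a surface marker by which definitive endoderm is sorted from differentiating stem cells. CXCR7 is an atypical receptor that binds CXCL12 and CXCL11, recruits arrestin rather than activating G proteins, and clears CXCL12 from around the cell.

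The sequence upstream of CXCR4 is shown because CXCR4 was called higher in endoderm, and motifs of factor families known to act in endoderm were searched in it. It is the 250 bases before the start farthest upstream among 3 starts in the RefSeq table (GRCh38.p14, chr2:136118150-136118399, minus strand), written 5′ to 3′ with the motif matches in capitals.
CXCR4 promoter: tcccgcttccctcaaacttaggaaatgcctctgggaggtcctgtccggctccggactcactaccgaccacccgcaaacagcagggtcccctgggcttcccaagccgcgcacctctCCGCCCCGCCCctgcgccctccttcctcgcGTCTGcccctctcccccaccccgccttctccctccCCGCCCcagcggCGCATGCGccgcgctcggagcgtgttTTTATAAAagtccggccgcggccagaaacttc
The motifs were searched on both strands, and the share of the 35116 promoters of the same length that hold each motif is given beside it. The letters of the GATA factors, which are also their name, had no match in this window and occur in 45.6% of promoters. TGTTTAC, bound by forkhead factors, had no match and occurs in 2.98%. The SOX motif searched, ACAATG, had no match either and is found in 9.29% of promoters. For the form of the hypoxia element searched, ACGTG, there was likewise no match, against 18.5% of promoters that hold it. Each motif was searched as the letters given and in no other form. No match therefore does not mean that the window lacks sites of that family. CAGAC, bound by SMAD factors, had 1 match, 105 bases before the start, and occurs in 38.0% of promoters. GGGCGG (GC box) matched at 135, 130 and 70 bases before the start, with the 135 and 130 matches overlapping, and occurs in 42.6% of promoters. CGCATGCG (NRF1) matched at 58 bases and occurs in 1.73% of promoters. TATAAA matched at 32 and 30 bases on opposite strands, with overlap, and occurs in 10.7%. These matches are letters in a window, and reads from the 3′ end do not show which start was used.

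CXCR4 was far higher in endoderm. The CXCR4 region lies on chromosome 2 at 136588381 to 136588656 of the hg18 (NCBI36) positions, on the minus strand, and spans 276 bases. No annotation of that build was at hand, so its exon or UTR is not given. Its signal, the reads divided by the library's size factor, was 731.9, 316.1 and 525.5 in the G1, G1/S and S libraries of endoderm, from 1060, 190 and 307 reads. In hESC G1, G1/S and S it was 16.6, 11.5 and 39.0, from 22, 11 and 66 reads. The 95% counting intervals were 688 to 777, 273 to 364 and 468 to 588 in endoderm and 10.4 to 25.2, 5.72 to 20.5 and 30.2 to 49.6 in hESC. Every endoderm library stood above every hESC library, and endoderm G1 was the highest. The means were 524 ± 208 in endoderm and 22.4 ± 14.6 in hESC (SD, n = 3 each), a 23.5-fold difference. On the log2(signal + 1) scale the difference was 4.59 ± 0.39 (SE, limma adjusted p = 0.00221). The added 1 shrinks the differences of regions with few reads. In endoderm G1, G1/S and S, CXCR4 lay above 92.9%, 82.7% and 89.1% of regions, and in those of hESC above 27.5%, 21.7% and 50.3%.

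CXCR7 was also far higher in endoderm, and in hESCs it was near the limit of detection. The CXCR7 region lies on chromosome 2 at 237155433 to 237155746 (hg18, NCBI36), on the plus strand, and spans 314 bases. Its signal was 70.4, 58.2 and 80.4 in the G1, G1/S and S libraries of endoderm, from 102, 35 and 47 reads. In hESC G1, G1/S and S it was 1.51, 1.04 and 1.77, from 2, 1 and 3 reads. The 95% counting intervals were 57.4 to 85.5, 40.6 to 81.0 and 59.1 to 107 in endoderm and 0.183 to 5.47, 0.0264 to 5.80 and 0.365 to 5.18 in hESC. The groups did not overlap, and the hESC values lie at or under the level of 3 reads, which is 1.77 to 3.12 in those libraries. The means were 69.7 ± 11.1 in endoderm and 1.44 ± 0.371 in hESC (SD, n = 3 each), a 48.3-fold ratio that rests on 6 hESC reads. The log2 difference was 4.85 ± 0.51 (SE, limma adjusted p = 0.00342). It moved with the pseudocount, to 5.18 at 0.5 and 3.75 at 4, and stayed past the threshold (limma adjusted p = 0.0036 and 0.00409).

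Both receptors passed the filter on low values in all 6 libraries and both were called higher at an adjusted p of 0.05, where 6.90% of the 14657 tested regions were called higher in endoderm and 14.5% in either direction. Endoderm values stood above all hESC values at 14.7% of tested regions, and the groups did not overlap at 33.4%. In the order of log2 differences over 9581 gene names, CXCR7 was 9th and CXCR4 was 16th, and over all tested regions CXCR7 was 19th and CXCR4 was 35th. These ranks depend on the added 1. At a pseudocount of 4 the difference was 4.38 for CXCR4 and 3.75 for CXCR7, the opposite order. The neighbours of CXCR7 in that order were SHH, a secreted signalling protein, at 4.86 and FOXI1, a forkhead factor, at 4.85. FOXI1 averaged 53.7 ± 26.2 in endoderm and 0.953 ± 1.18 in hESC, and SHH averaged 67.8 ± 36.0 in endoderm and 1.19 ± 0.524 in hESC. Their hESC values rest on 4 reads for FOXI1 and 5 for SHH. Next above CXCR4 was GATA4, a zinc finger factor of endoderm, at 4.60. GATA4 averaged 180 ± 43.2 in endoderm and 6.55 ± 2.18 in hESC. Differences over all regions had a median of 0.02.

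**Figure D1:**
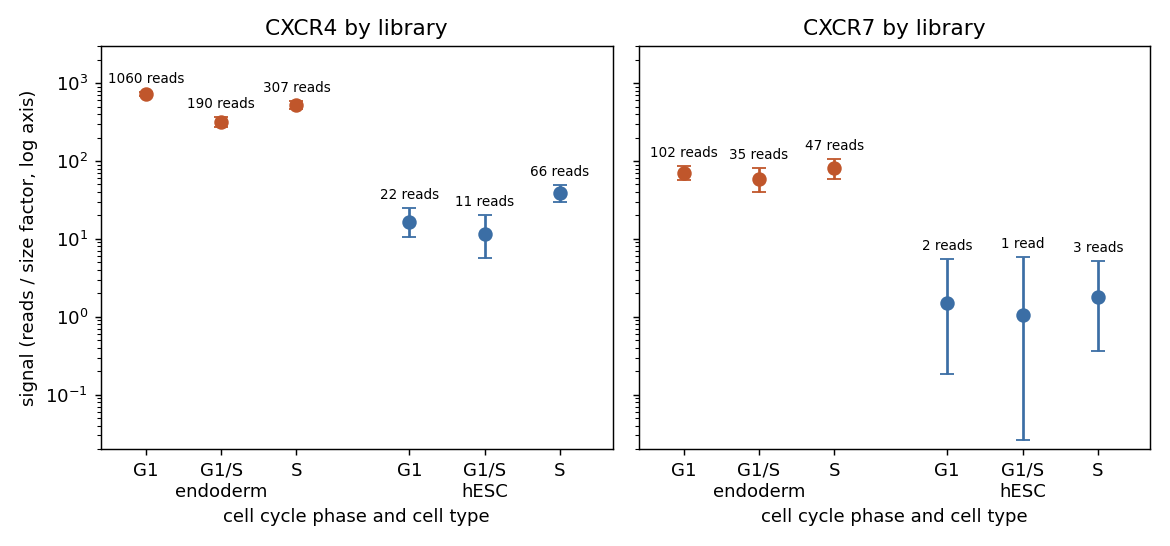
Signal of CXCR4 and CXCR7 in each of the 6 libraries (log axis), endoderm in orange and hESC in blue, with 95% exact Poisson intervals and the reads printed above each point. The endoderm libraries lie between 316 and 732 for CXCR4 and between 58.2 and 80.4 for CXCR7, all above the hESC libraries.

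**Figure D2:**
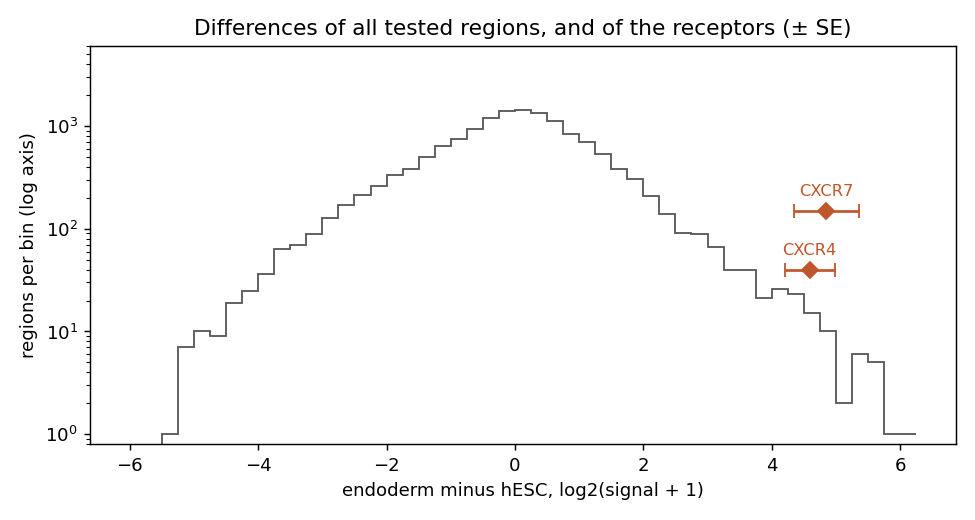
Distribution of the log2 difference, endoderm minus hESC, over the 14657 tested regions (log axis of regions per bin), with the 2 receptors and their SE drawn at arbitrary heights. CXCR4 at 4.59 and CXCR7 at 4.85 lie in the upper tail of a distribution with median 0.02.

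The labelled cell types were checked against marker lists. All 9 definitive endoderm markers with a region (of 12) were called higher in endoderm, with summed signals of 9026 to 22938 in endoderm and 502 to 679 in hESC. Among the 9, endoderm means were largest for EOMES (5976), GSC (3148) and LHX1 (2085), against 155 for SOX17 and 85.7 for FOXA2. Of 7 hESC markers measured (no region for NANOG), 3 were called lower in endoderm, namely SOX2 (log2 difference -1.62), DNMT3B (-1.66) and UTF1 (-2.73). POU5F1 (-0.01), LIN28 (0.41), DPPA4 (0.45) and ZFP42 (-0.67) were not called. Sums of the 7 were 1230 to 1685 in endoderm and 2982 to 4245 in hESC. Among the 7, means in hESC were largest for SOX2 (1615) and UTF1 (1182). Of the other lists, endothelial sums were 221 to 260 in endoderm and 246 to 416 in hESC (3 of 6 measured, with no region for PECAM1, CDH5 and TEK). Mesenchymal sums were 1853 to 3396 in endoderm and 5276 to 9103 in hESC (3 of 6 measured, with no region for COL3A1, LUM and DCN). THY1 weighed most in them, with hESC means of 4388 for THY1, 2891 for COL1A1 and 161 for COL1A2. A gene's place on a list does not show that such cells were present. Blood had 1 of 7 measured, mesoderm 2 of 7, neural 2 of 5 and trophoblast 2 of 8, with RUNX1 (log2 difference 1.92), TWIST1 (2.62), PAX6 (4.40) and GATA3 (2.62) called higher and the trophoblast marker KRT7 (-2.42) called lower. TBX6 (-0.76, mesoderm) and SOX10 (1.46, neural) were not called. Of the endothelial markers VWF was called higher (2.19), TIE1 lower (-1.30) and KDR (-0.79) not, and of the mesenchymal ones COL1A1 (-1.78) and THY1 (-1.43) were called lower and COL1A2 (-0.92) not. The part of these cells in the receptor levels was not tested, and fewer cells of a type cannot be told apart from less RNA per cell.

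By phase, the CXCR4 excess was larger in G1 than in S. The ratio of endoderm to hESC signal was 44.0 in G1 (95% interval 28.9 to 70.5), 27.6 in G1/S (15.1 to 56.2) and 13.5 in S (10.3 to 17.9), so the G1 and S intervals did not overlap. For CXCR7 it was 46.5 in G1 (12.6 to 390), 55.9 in G1/S (9.40 to 2271) and 45.4 in S (14.6 to 228). The CXCR7 intervals overlap across phases. These intervals are exact only if reads are independent, and they leave out the spread between libraries. Reads copied by PCR without molecular identifiers do not each stand for a molecule, so the intervals can be too narrow even for counting error. Within endoderm, CXCR4 in G1/S was 0.432 times its G1 level (0.368 to 0.504) and in S 0.718 times (0.630 to 0.816). Within hESC it was 0.688 times (0.301 to 1.48) and 2.34 times (1.43 to 3.99), the S interval lying above 1. The direction of S against G1 was thus opposite in the 2 cell types, and the difference was not tested. The libraries also differ in how signal goes with GC content (values below), and the part of GC in these ratios was not tested.

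Fitted over both cell types, the phases gave no call for either receptor. CXCR4 differed by -0.86 ± 0.47 in G1/S minus G1 (limma adjusted p = 0.416) and 0.35 ± 0.47 in S minus G1 (limma adjusted p = 0.982). The G1/S minus G1 difference of CXCR4 was -0.26 without endoderm G1 and -1.45 without hESC G1 (limma adjusted p = 0.884 and 0.148), and its S minus G1 difference was -0.24 without hESC G1 and -0.30 without hESC S. CXCR7 differed by -0.29 ± 0.62 and 0.17 ± 0.62 (limma adjusted p = 0.834 and 0.996). No region was called in either phase comparison, 0% of the 14657, whereas limma had 2002 and 497 regions at an unadjusted p under 0.05, edgeR called 0 and 0, and DESeq2 called 89 and 1. In order of level, CXCR4 ran endoderm G1, S, G1/S, then hESC S, G1, G1/S, and of neighbours in that order only hESC G1 and G1/S had overlapping intervals. CXCR7 ran endoderm S, G1, G1/S, then hESC S, G1, G1/S, and of neighbours in that order only endoderm G1/S and hESC S had intervals that did not overlap. The 3′ ends of both transcripts are poor in GC (34.2% for CXCR4, 27.8% for CXCR7, median 46.2% over named regions). GC content correlated with a region's deviation from the mean by a rank correlation of -0.397, 0.243 and -0.165 in the G1, G1/S and S libraries of endoderm and -0.00454, 0.426 and -0.105 in those of hESC. With a GC correction the CXCR4 G1/S minus G1 difference was -0.30 (limma adjusted p = 0.774), that of CXCR7 turned to 0.30, and the endoderm differences were 4.44 for CXCR4 and 4.68 for CXCR7.

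For every 100 CXCR4 reads, CXCR7 had 9.62 (95% interval 7.77 to 11.8), 18.4 (12.5 to 26.5) and 15.3 (11.0 to 20.9) in the G1, G1/S and S libraries of endoderm, and 9.09 (1.04 to 37.0), 9.09 (0.211 to 62.5) and 4.55 (0.914 to 13.9) in those of hESC. Endoderm G1 and G1/S did not overlap, whereas the cell types overlapped in each phase. On the log2 scale the ratio averaged -2.82 in endoderm and -3.09 in hESC, a difference of 0.27 (exact two-sided permutation p = 0.6, with 0.1 the smallest that 3 against 3 libraries allow). With these numbers of libraries the test cannot pass 0.05, so the difference of the ratio stands as a value only.

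**Figure D3:**
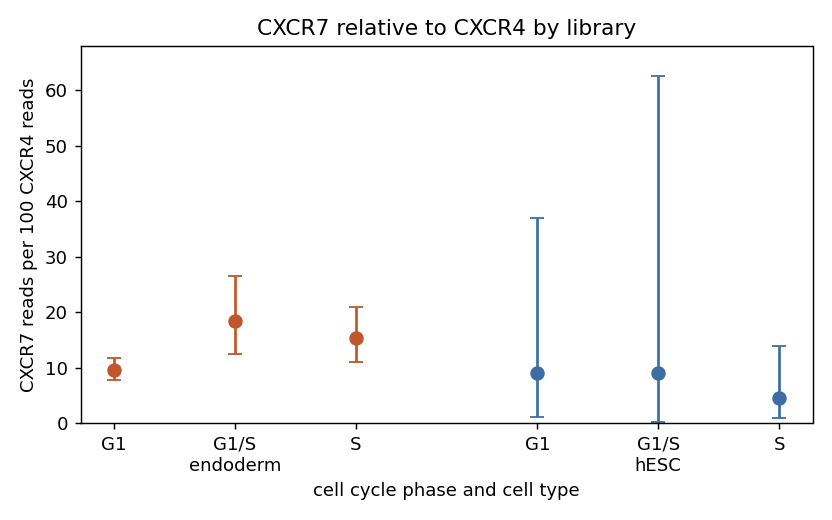
CXCR7 reads per 100 CXCR4 reads in each library, with 95% exact intervals, endoderm left and hESC right. Endoderm lies between 9.62 and 18.4 and hESC between 4.55 and 9.09, with wide intervals in hESC.

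The CXCR4 region is overlapped on the opposite strand by 2 unnamed regions, both higher in endoderm. NOVEL_311 (chromosome 2, 136588344 to 136588457, plus strand, 114 bases, 77 of them shared) had signals of 136, 25.0 and 99.3 in the endoderm libraries (same order of phases), against 3.78, 3.12 and 12.4 in hESC (log2 difference 3.47 ± 0.55, limma adjusted p = 0.0103). NOVEL_312 (136588500 to 136588789, 290 bases, 157 shared) had 38.7, 28.3 and 27.4 in endoderm and 0, 1.04 and 1.77 in hESC (4.17 ± 0.72, limma adjusted p = 0.0138). In both, every endoderm library exceeded every hESC library. Together they held 23.9, 16.8 and 24.1 plus-strand reads per 100 CXCR4 reads in the G1, G1/S and S libraries of endoderm, against 22.7, 36.4 and 36.4 in hESC, with overlapping intervals in each phase. The share averaged 21.6 ± 4.13 in endoderm and 31.8 ± 7.87 in hESC (SD, n = 3 each). In all, 528 named regions (5.09%) are overlapped by an opposite-strand unnamed region, and 13 of them by 2 or more. Over the 6 libraries the share at CXCR4 was 23.0 per 100, against a median of 45.0 over the 528. CXCR7 is not overlapped. The origin of these reads was not tested.

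**Figure D4:**
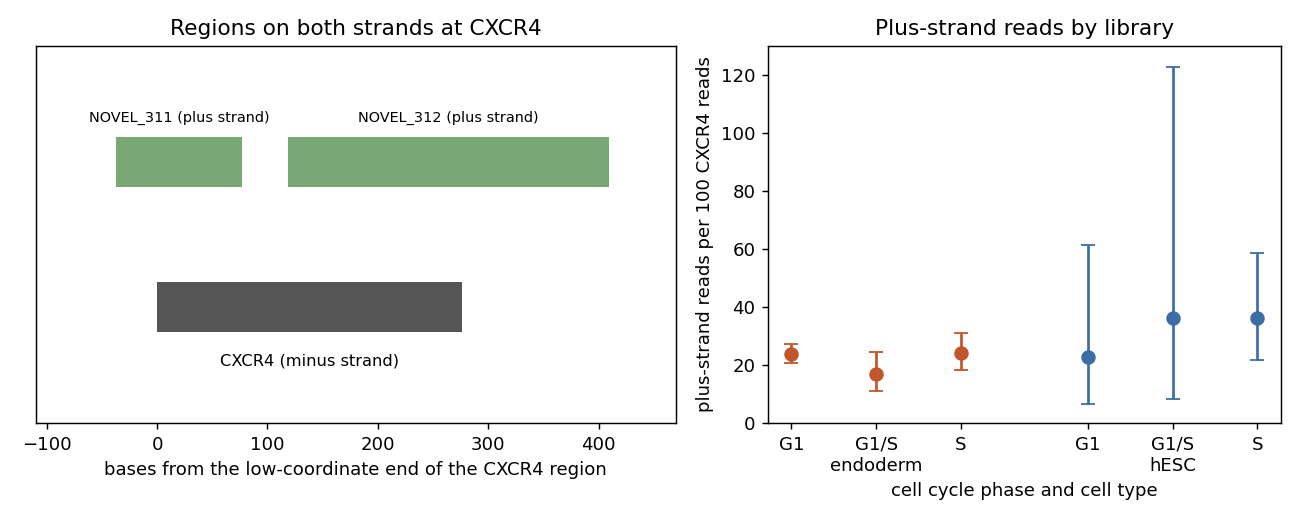
Left, a map to scale of the CXCR4 region (minus strand, dark) and the 2 unnamed plus-strand regions (green), in bases from the low-coordinate end of the CXCR4 region. Right, plus-strand reads of both unnamed regions per 100 CXCR4 reads by library, endoderm left and hESC right, with 95% exact intervals; endoderm lies between 16.8 and 24.1 and hESC between 22.7 and 36.4.

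A list of 148 genes of the chemokine system had 68 with a region, of which 9 were called higher in endoderm, 5 lower and 54 not. The 9 are 13.2% of those measured, where 6.90% of all tested regions were called higher, and the 14 calls are 20.6%, where 14.5% of all tested regions were called in either direction. Without CXCR4 and CXCR7, 7 of 66 were called higher. The median log2 difference was 0.16 over the 68 and 0.15 over the 66, against 0.02 over all regions. No region carries the names CXCL12 or CXCL11. Among 8 ligands, CCL2, which attracts monocytes, was 36.2 ± 26.1 in endoderm and 3.26 ± 2.58 in hESC (log2 3.12 ± 0.79, limma adjusted p = 0.0405). CCL22, a ligand of CCR4, was 4.96 ± 3.10 in endoderm and 26.0 ± 8.16 in hESC (-2.33 ± 0.60, limma adjusted p = 0.0419), and CX3CL1 (fractalkine), which is tethered to the membrane, was 7.76 ± 4.81 in endoderm and 49.2 ± 30.0 in hESC (-2.42 ± 0.49, limma adjusted p = 0.0221). The ligands CXCL5, CXCL14, CXCL16, CCL26 and CCL27 had log2 differences of -0.78, -0.10, -0.97, -0.81 and -0.41 and were not called. Of the 3 classical receptors, CCR7, which brings lymphocytes to lymph nodes, was called beside CXCR4. Its signals were 35.9, 78.2 and 68.5 in endoderm (G1, G1/S, S), against 3.78, 18.7 and 21.9 in hESC, with no overlap, and means of 60.9 ± 22.1 in endoderm and 14.8 ± 9.66 in hESC (2.19 ± 0.44, limma adjusted p = 0.0213). The CXCL13 receptor CXCR5 was not called (0.36). The atypical receptor DARC had 0.28 and was not called.

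Among 4 genes listed as ligand modifiers or other ligands, ADM (adrenomedullin), a peptide that CXCR7 also binds, was 425 ± 57.8 in endoderm and 156 ± 24.2 in hESC (1.44 ± 0.26, limma adjusted p = 0.0152). CD74, a receptor for the cytokine MIF, had signals of 17.3, 4.99 and 13.7 in the G1, G1/S and S libraries of endoderm, against 45.4, 58.3 and 265 in hESC (-2.94 ± 0.57, limma adjusted p = 0.0192). The hESC S library held most of the CD74 reads, and the groups did not overlap. MIF (-0.33) and HMGB1 (0.84), also among the 4, were not called and are named here after their values were seen. In the G proteins, GNB1, a beta subunit, was higher in endoderm (1.31 ± 0.29, limma adjusted p = 0.0285). Of 6 receptor kinases and arrestins, which quench and internalise such receptors, limma called 0, with 1 at an unadjusted p under 0.05, and edgeR and DESeq2 called 0. Over all 14657 tested regions, limma had 5016 at an unadjusted p under 0.05 in endoderm minus hESC. The arrestin ARRB2, which CXCR7 recruits, had -0.34 and its relative ARRB1 0.37, named here after their values were seen. Of 8 genes for receptor sorting limma called 0, with 2 at an unadjusted p under 0.05, edgeR 0 and DESeq2 1, which was RAB7, a GTPase of late endosomes, at 1.24 in limma (named after its values were seen). RGS9, which speeds GTP hydrolysis by G proteins, was higher (1.05 ± 0.28, limma adjusted p = 0.0478). Of 19 downstream effectors, RAC1 and CDC42, small GTPases of cell movement, were higher at 0.92 and 1.45 (limma adjusted p = 0.0321 and 0.0358), and JAK3, a kinase, was lower at -1.54 (limma adjusted p = 0.0397). PLCB2, a phospholipase acting after G proteins, had 13.1, 29.9 and 13.7 in endoderm (G1, G1/S, S), against 151, 209 and 131 in hESC. Its groups did not overlap, and the mean was 18.9 ± 9.55 in endoderm and 164 ± 40.7 in hESC (-3.12 ± 0.35, limma adjusted p = 0.0039). When each library was left out in turn, CXCR4, CXCR7 and PLCB2 kept their call in all 6 fits, CCR7 and ADM in 4, CCL2 and CD74 in 3, CX3CL1, GNB1 and RAC1 in 2, JAK3 in 1 and CCL22, RGS9 and CDC42 in 0. Leaving out either library of a phase gave the same CXCR4 difference, 4.19 for G1, 4.55 for G1/S and 5.02 for S. The phase term takes up the library that remains in that phase, so the 6 fits are not 6 separate checks. On the recovered reads edgeR called 11 of the list and DESeq2 15. Over all 14657 tested regions edgeR called 1990 and DESeq2 2780. Within the list edgeR did not call CCL2, RGS9 and CDC42 (edgeR adjusted p = 0.0518, 0.0612 and 0.0505). Without the intensity trend of the limma fit 7 were called, and CCL2, ADM, GNB1, RGS9, JAK3, RAC1 and CDC42 were not (limma adjusted p = 0.0658, 0.0525, 0.0801, 0.0994, 0.0696, 0.126 and 0.0583).

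**Figure D5:**
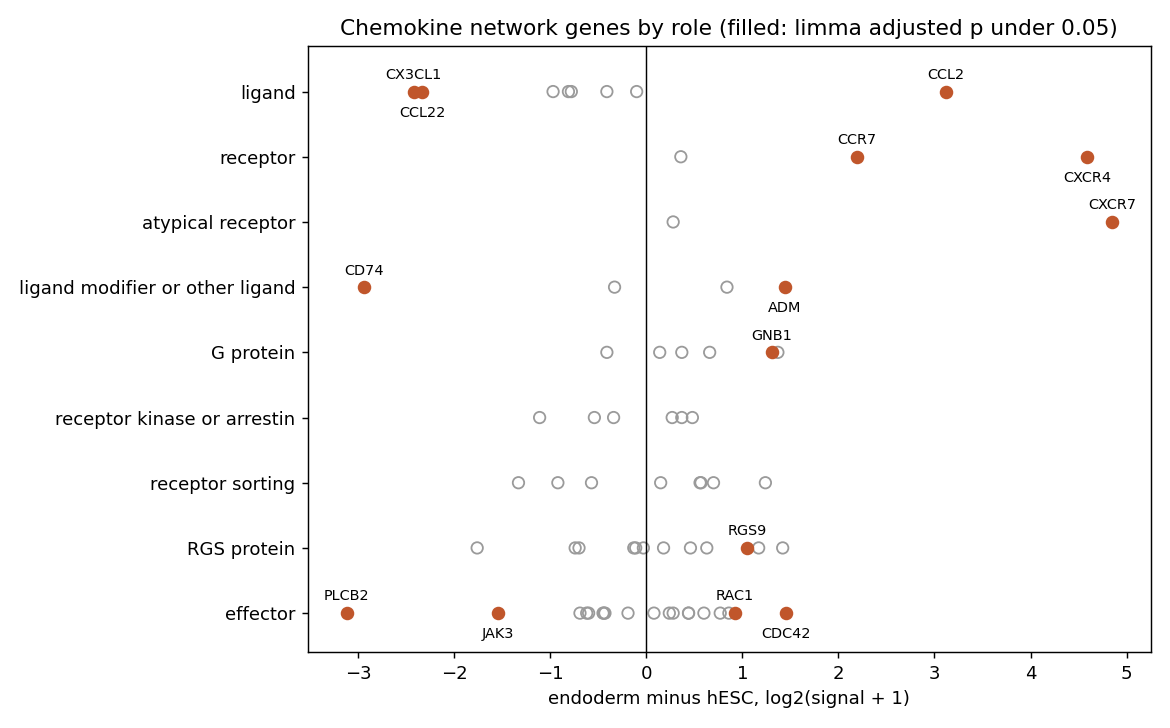
Log2 difference, endoderm minus hESC, of the genes of the chemokine list that have a region, grouped by role, with filled points for limma adjusted p under 0.05 and open points for the rest. Receptor calls include CXCR4 (4.59), CXCR7 (4.85) and CCR7 (2.19), and PLCB2 (-3.12) is the lowest.

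Among 7639 gene names with a mean signal of at least 20, the ones whose log2 signal over the 6 libraries was most like CXCR4 were NPPB, FLJ36031, MYO10, UBE2D2 and ARL6IP1 (Pearson r 0.9975 to 0.9885). NPPB, the gene for B-type natriuretic peptide, averaged 5143 ± 1771 in endoderm and 278 ± 190 in hESC. Those most like CXCR7 were LBH, C2orf34, MYO10, BMP2 and VASN (0.9973 to 0.9923). BMP2, a bone morphogenetic protein, averaged 145 ± 56.5 in endoderm and 4.89 ± 1.85 in hESC. MYO10, an unconventional myosin, was on both lists and averaged 308 ± 31.2 in endoderm and 93.5 ± 13.6 in hESC. CXCR4 and CXCR7 had r = 0.979 with each other. These values rest on 6 libraries of 2 cell types, and 350 names exceeded 0.9 with CXCR4 and 420 with CXCR7. The nearest regions on chromosome 2 that do not overlap a receptor had differences smaller in size. DARS, 171 kb from CXCR4, was 58.7 ± 7.61 in endoderm and 39.7 ± 14.2 in hESC (0.61 ± 0.36, limma adjusted p = 0.262), and HNMT on its other side had -0.83 (limma adjusted p = 0.255). NOVEL_376, 412 kb from CXCR7, was 18.9 ± 6.79 in endoderm and 78.5 ± 25.3 in hESC (-2.02 ± 0.39, limma adjusted p = 0.0183), and MLPH on its other side had -1.67 (limma adjusted p = 0.118).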

How the data were processed

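The authors deposited 1 table of signal values per region for the 6 libraries. Tools credited in the submitters' processing notes, with no role stated, are Bowtie 0.12.7, CASAVA 1.5 and DESeq 1.5.24, and the builds are hg18 and NCBI36. At a tolerance of 1e-06, 100% of the deposited signal values were whole reads divided by 1 constant per library, and those reads gave depths of 2502792 to 5389666 in endoderm and 4194957 to 6203079 in hESC. A count of 0 allows a signal of up to 2.07 to 5.13 in endoderm and 1.77 to 3.12 in hESC (3 reads). Regions with log2(value + 1) of at least 1 in at least 3 libraries were kept (14657, 29 removed). limma 3.58.1 (lmFit, eBayes with trend, R 4.3.3) fitted cell type and phase, with Benjamini-Hochberg adjustment and a threshold of 0.05. Strand was read from the order of a region's positions, which matched GENCODE 29 for 99.6% of 8834 named regions. The fit has 2 residual degrees of freedom. edgeR 4.0.16 and DESeq2 1.42.0 were run on the recovered reads as alternatives, beside other pseudocounts, filters, scalings, a GC correction and leaving out libraries. Intervals are exact at 95% for reads taken as independent. Genes were named by rule: both receptors, all listed chemokine ligands and receptors with a region, other list members called, the 5 names most like each receptor, and neighbours in position and in rank. ARRB1, ARRB2, RAB7, MIF, HMGB1 and the markers were named outside that rule. The gene next below CXCR4 in rank is not reported here. The receptors and the lists were chosen with earlier results of these data known.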

Additional observations from a re-analysis of the deposited data

Results flagged for a closer look

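CXCR4 in S against G1 went in opposite directions in the 2 cell types: the ratio was 0.718 in endoderm (95% interval 0.630 to 0.816) and 2.34 in hESC (1.43 to 3.99). The difference was not tested, with 1 library for each type and phase. GC content correlated with a region's deviation from the mean by -0.397 and -0.165 in endoderm G1 and S, and by -0.00454 and -0.105 in hESC G1 and S. The 3′ end of CXCR4 is poor in GC (34.2%), and the part of GC in the opposite directions was not tested.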

How the results depend on the processing

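The endoderm minus hESC difference kept its direction and its call under all 18 alternatives for both receptors, at 4.19 to 5.02 for CXCR4 (adjusted p 3.03e-22 to 0.0327 over limma, edgeR and DESeq2) and 3.75 to 5.59 for CXCR7 (2.07e-09 to 0.0359). These alternatives are not all separate checks. Leaving out either library of a phase gave the same difference, and for G1/S so did leaving out both. The phase differences, which passed no test, turned in these cases: CXCR4 S minus G1 was -0.24 without hESC G1 and -0.30 without hESC S (-0.30 to 1.0 over libraries left out), CXCR7 G1/S minus G1 was 0.30 with GC correction, and CXCR7 S minus G1 was -0.52 with quantile normalization. The CXCR7 to CXCR4 log2 ratio difference was -0.63 at a pseudocount of 4 and -0.11 without hESC S (-0.11 to 0.53). The regions higher in endoderm, 1011 here, were 587 with no intensity trend, 204 without both G1/S libraries and 230 to 1340 with 1 library left out (252 without endoderm G1/S, 601 without endoderm S, 230 without hESC G1/S, 580 without hESC S). Regions called in G1/S against G1 were 89 with DESeq2 and 0 to 327 with 1 library left out (222 without endoderm G1, 327 without hESC G1), and in S against G1 1 with DESeq2 and 0 to 225 (225 without endoderm G1). The 14 calls of the chemokine list became 7 with no trend, 3 without both G1/S libraries and 3 to 13 with 1 library left out (3 without endoderm or hESC G1/S). The cause was not tested. The library titles give cell type, phase and hours but no replicate number. The phase term of the fit therefore pairs the libraries of the 2 types by phase alone. Same-phase libraries of the 2 types had deviations correlated by 0.01 for G1, 0.35 for G1/S and 0.08 for S, of which only that of G1/S is over 0.1. Pairs of unlike phase ran from -0.42 (endoderm G1/S with hESC S) to 0.39 (endoderm G1 with hESC S). The highest correlation was thus not between libraries of the same phase. Without the phase term, that is with no pairing, the differences were 4.59 for CXCR4 and 4.85 for CXCR7 (limma adjusted p = 0.000508 and 0.000525) and 837 regions were higher in endoderm. That fit gives no phase differences, and the fit without both G1/S libraries gives none for G1/S. Depth limits CXCR7 in hESC, which rests on 6 reads.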
